A study of Sus scrofa with 14 samples.

Results

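The segments described here are the control segments (Sd) of an in situ small intestinal segment perfusion (SISP) experiment in piglets: every array titled as a saline digest control was taken, 7 of 14 arrays, 1 from each of 7 pigs. In SISP, loops of small intestine are closed off and perfused in the anaesthetised animal, so that the mucosa keeps its blood supply while it is exposed to a test fluid. Each pig also gave a second segment, which received digested yellow onion (YOd) in pigs 1, 2 and 4 and digested white onion (WOd) in pigs 5, 6, 7 and 8. Expression was measured on 1-colour Agilent pig arrays. The animals were male piglets of 5 weeks and 8.2 kg, anaesthetised with sevoflurane. All segments lay between 31 and 58% of the length of the small intestine. Each Sd segment was filled with 20 ml of the digestion fluids without onion, diluted 1:3 in saline, then perfused with 2 ml every 15 min for 6 h. The digestion fluids had been made with pepsin, pancreatin and the bile salts taurocholate and glycodeoxycholate, and the saline held casamino acids and glucose. RNA came from a mucosal scraping of the caudal 10 cm of the segment. The labels do not give the place of each segment within that range, and no segment that was left unperfused was analysed here, so the levels are those of mucosa after perfusion. An animal with the number 3 was not analysed here.

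The lining of the small intestine is a sheet of absorptive enterocytes, broken up by goblet cells that secrete mucus and by enteroendocrine cells that release hormones, all renewed from dividing cells in the crypts. Beneath it lies a lamina propria with T cells, plasma cells, macrophages, vessels and fibroblasts. The tract is also graded along its length: genes for iron and folate uptake and for the hormones SCT and CCK are used mainly in the proximal part, and genes for bile acid recovery, such as FABP6 and SLC10A2, mainly in the ileum.

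Levels are given as log2 of the processed signal over the 75th percentile of the array, so that 0 is that percentile and a difference of 1 is a 2-fold difference. Values below a common floor of -4.43 were set to it. Between 50.6% (pig 8) and 70.7% (pig 2) of probes were well above background, the scanner software's own call. The 75th percentile of signal ran from 385 (pig 5) to 795 (pig 4), and 546 to 964 probes per array were saturated, meaning that their brightness had reached the scanner's upper limit. The array of pig 8 had 462 spots flagged as outliers, against 5 to 115 on the other 6. Pigs 2 and 7 were scanned in a later session than the others. A gene was represented by its probe of highest signal. Of 3021 genes named, 2182 (72.2%) were well above background on all 7 arrays, 254 on none and 564 on 1 to 6; another 21 were above background on all 7 but had an outlier spot on 1 array and were left out of the measures of spread.

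Absorptive enterocyte genes and ribosomal protein genes held the brightest probes. On all 7 arrays 82 genes were saturated. These included 25 of 34 cytosolic ribosomal protein genes and 10 of 16 genes of the absorptive enterocyte list. The 10 were the fatty acid binding protein FABP2, the lipoprotein genes APOA1, APOA4 and MTTP, the vitamin A binding protein RBP2, the brush border peptidases ANPEP and DPP4, the glucose transporter SLC5A1, LGALS4 and the keratin KRT8. Respiratory chain and ATP synthase genes gave 4 of 26 (ATP5E, ATP5G3, COX5B and COX6A1), and MHC class I genes with B2M gave 3 of 14 (B2M, SLA-3 and SLA-5). The other 40 held the transmembrane mucin MUC13, GUCA2A, which encodes the gut peptide guanylin, the scavenger receptor protein DMBT1, the ubiquitin-like interferon product ISG15, the ferritin chains FTH1 and FTL, the calcium binding protein S100G, and FCGRT, the heavy chain of the neonatal Fc receptor. They also held CASP10, FCN2 and ITGB3, and whether those probes also bound other transcripts was not tested. The 20 genes of highest median signal included RPL23, SLA-5, RPL30, RPL35, FCGRT, RPS3A, MUC13, MUT, CD82, KRT8, FABP2, B2M, RPL32, MYL6, ATP5I, OAZ1, RPSA, RPL6 and EEF1A1, with medians of 6.98 to 7.09, and all 20 were saturated on at least 4 arrays. Their signal is a lower bound, and a probe's brightness also depends on how well it binds, so no order among these genes was read.

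Among genes saturated on no array, the highest medians were those of the aspartyl aminopeptidase DNPEP (6.06 to 6.88 over the 7 arrays), the ATP synthase subunit ATP5O (5.96 to 6.83), the chloride channel family gene CLIC5 (6.11 to 6.74) and ACE (5.93 to 6.70), a peptidase of the brush border. The sodium pump subunit ATP1B1 and the sterol demethylase CYP51 were also in the highest 15. Pig 6 had the lowest value of the 7 for DNPEP, ATP5O and CLIC5, and the highest for ACE.

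The 5 regional markers fell into a saturated pair and a variable trio. FABP2 and APOA4 were saturated on every array (6.61 to 7.44 and 6.51 to 7.58). The second probe of each was saturated on 5 and 6 arrays. A difference between pigs in these genes could therefore not be measured. In contrast, FABP6, the ileal bile acid binding protein, was at -2.17, 3.70, -1.53, -0.33, 6.47, 1.68 and -2.07 in pigs 1, 2, 4, 5, 6, 7 and 8. Pig 6 stood highest and pigs 1, 4 and 8 lowest, a range of 399-fold. The other probe of FABP6 gave r = 0.99 with it over the 7 arrays and ran from -2.91 in pig 8 to 6.52 in pig 6, so that the lowest pig and the range depend on the probe. SLC10A2, the sodium-dependent bile acid transporter of the ileal brush border, was at -2.63, -1.21, -1.86, -1.16, 1.24, -1.93 and -3.74. It was well above background on 6 of 7 arrays, again with pig 6 highest and pig 8 lowest. SCT, which encodes secretin, was at 1.53, 0.24, 1.82, 0.78, -0.91, 0.63 and 1.27, with pig 6 lowest and pig 4 highest.

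**Figure D1:**
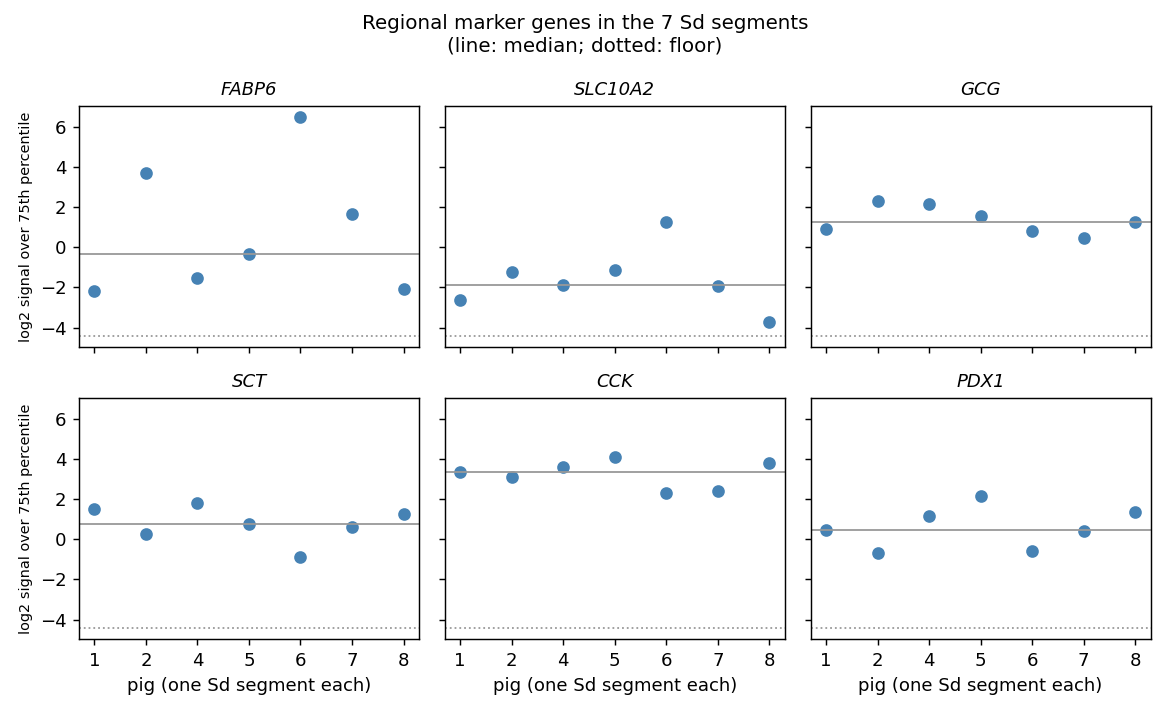
Level of 3 genes of the distal small intestine (FABP6, SLC10A2 and GCG, top) and 3 of the proximal (SCT, CCK and PDX1, bottom) in the Sd segment of each pig. The y axis is log2 signal over the 75th percentile of the array, the line is the median of the 7 segments and the dotted line the floor at -4.43. FABP6 spans -2.17 to 6.47 and is highest in pig 6, where SCT, at -0.91, is lowest.

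FABP6 and SCT ran in opposite directions over the pigs. Their correlation was r = -0.956 (exact permutation p = 0.0012, two-sided, n = 7, adjusted p = 0.006 over the 10 marker pairs) with rho = -0.893 (exact permutation p = 0.0123, adjusted p = 0.0615). Without the 2 pigs farthest from the median of FABP6, r was -0.809. FABP6 and SLC10A2 gave r = 0.863 (exact permutation p = 0.0081, adjusted p = 0.0271) and rho = 0.786 (exact permutation p = 0.048, adjusted p = 0.160), but r was 0.545 without the 2 farthest pigs and 0.648 without pig 6 (exact permutation p = 0.161), so that the relation rested mainly on pig 6. Without pig 6, FABP6 and SCT were at r = -0.894 (adjusted exact permutation p = 0.0694). SLC10A2 and SCT gave r = -0.831 (adjusted exact permutation p = 0.0734), with rho = -0.607 (exact permutation p = 0.167) and r = -0.650 without the 2 farthest. The other 7 pairs included FABP2 or APOA4. FABP2 with APOA4 also passed (r = 0.991), but saturated probes carry the scaling of their array and the value says nothing of the genes. Within the 5 pigs of the earlier scan session r was -0.964 for FABP6 with SCT and 0.927 for FABP6 with SLC10A2. The later session held 2 pigs, too few for a value. Each value is between genes on the same arrays, of segments whose distance along the intestine is not known. The markers were chosen with earlier results of these data known, and the same correlations were not worked out for pairs of other genes. These p-values therefore do not show a relation particular to the markers.

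The remaining regional genes did not all follow FABP6. CCK, the hormone cholecystokinin, was at 3.33, 3.11, 3.61, 4.10, 2.29, 2.39 and 3.77, lowest in pigs 6 and 7. PDX1, a transcription factor of the duodenum and pancreas, was at 0.48, -0.68, 1.16, 2.16, -0.61, 0.39 and 1.35, lowest in pigs 2 and 6. The ferric reductase CYBRD1 (2.14 to 3.60) and the folate transporter SLC46A1 (3.28 to 4.64) were lowest in pig 6 as well. GATA4, a transcription factor of the proximal gut, had an SD of 0.37 (-2.65 to -1.65) and did not set pig 6 apart. Of the 6 unsaturated genes of the proximal list, 0 lay above their own median in pigs 6 and 7, with median deviations of -0.91 and -0.23, and 5 lay above it in pig 4. On the distal side GCG, which encodes the glucagon-like peptides, was highest in pigs 2 (2.33) and 4 (2.14) and at 0.82 in pig 6. TCN2, the vitamin B12 carrier transcobalamin, had an SD of 0.27 (3.21 to 3.90). FABP6 and SLC10A2 thus separated pig 6 where GCG and TCN2 did not.

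Genes listed as markers of the colon were present too. AQP8, a water channel, was at 4.34 to 6.21, and the carbonic anhydrase CA4 at 2.10 to 5.00. The chloride/bicarbonate exchanger SLC26A3 was at 1.98, 2.68, 1.87, 1.13, 3.84, 2.81 and -0.33, an 18.0-fold range with pig 6 highest and pig 8 lowest. Pig 8 was also lowest for CA4.

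Goblet and enteroendocrine cell genes were measurable in every segment. All 5 named goblet cell genes were well above background on all 7 arrays. SPINK4, a peptidase inhibitor of goblet cells, ranged from 5.54 to 6.64, and CLCA1, a protein of the mucus, from 1.59 to 2.74, with pig 6 lowest in both. RETNLB, another secreted goblet cell product, ranged from -0.70 in pig 7 to 1.21 in pig 4. Of 10 enteroendocrine genes 9 were above background throughout. Somatostatin (SST, 3.35 to 4.61) was lowest in pig 7. Ghrelin (GHRL) was at -0.72, -1.35, 0.02, -0.53, -2.11, -2.97 and -1.03, a 7.91-fold range with pigs 6 and 7 lowest. Over the 9 enteroendocrine genes the median deviation from each gene's own median was 0.68 in pig 4 and -0.76 in pig 7, where 8 and 0 of the 9 lay above their medians. SCT, CCK and PDX1 are also on the proximal list and GCG on the distal one, so these lists are not separate observations.

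Of 8 named genes of secreted defence, 7 were above background on all arrays. Lysozyme (LYZ) and DMBT1 were saturated on 6 and 7 arrays, and lactoferrin (LTF, -1.23 to 0.44) and the bactericidal protein BPI (0.22 to 2.12) spanned 3.18-fold and 3.71-fold. REG3G, a bactericidal lectin, was at 3.90, 3.04, 6.09, 4.38, 5.90, 6.48 and 4.48. SLPI, a secreted protease inhibitor, was at 4.25, 3.53, 6.37, 3.13, 5.60, 6.88 and 6.21. REG3G was highest in pigs 4, 6 and 7 and lowest in pigs 1 and 2. SLPI was also high in pigs 4, 6 and 7 and low in pigs 1 and 2, but pig 8 stood above pig 6 and pig 5 was lowest. Each of these genes was saturated on 1 array, which makes its highest value a bound. PI3, the elafin gene and also a protease inhibitor, which was not on that list, was at -1.58, 2.42, 1.74, -1.03, 2.68, 4.35 and 2.69, with pigs 1 and 5 lowest and pig 7 highest. The epithelial defensin DEFB1 was highest in pig 6 (0.71, against -1.11 to -0.30). Lipocalin LCN2, a neutrophil and epithelial defence protein, was not well above background on any array.

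Crypt and cell cycle genes were high and low in the same pigs. The mitotic genes TOP2A (0.97 to 2.12), CDK1 (2.11 to 3.27), CCNB1 (1.71 to 2.88) and BIRC5 (3.35 to 4.47) were lowest in pig 1 in each case. Of the 6 genes above background throughout, 6 lay above their own median in pigs 2 and 4, and 0 did in pigs 1, 6 and 7. The median deviations were 0.28 and 0.30 in pigs 2 and 4 against -0.71, -0.66 and -0.46 in pigs 1, 6 and 7. The 6 genes had a median SD of 0.471, beside 0.398 over all 1970 genes.

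T cell genes were the most variable of the larger cell type lists. In whole mucosa, fewer cells of a type and less RNA per cell cannot be told apart, and this holds for every cell type list here. CD3E, a chain of the T cell receptor complex, was at 1.62, 1.58, 1.14, 2.74, 0.50, -0.07 and 2.22. CD3G was at 1.25, 1.82, 0.90, 2.86, -0.14, 0.27 and 2.50. Granzyme A (GZMA) was at 3.30, 3.70, 3.40, 4.77, 1.80, 2.83 and 5.17. Pigs 5 and 8 were high and pigs 6 and 7 low for all of these. The 8 unsaturated T cell genes all had an SD above the median of all genes (median 0.908 against 0.398), and 3 had one above 1, where the share over all genes was 5.13%. The summed level of the 9 T cell genes above background on all arrays went from 62.4 in pig 6 to 317 in pig 5, in units of the 75th percentile, with granzyme B (GZMB) saturated on 1 array. CD8A, a coreceptor of cytotoxic T cells, did not follow them: it was low in pigs 1 and 5 (-3.27 and -2.85) and highest in pig 8 (0.90), but its other probe gave r = 0.069 with it over the 7 arrays, so its order depends on the probe.

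**Figure D2:**
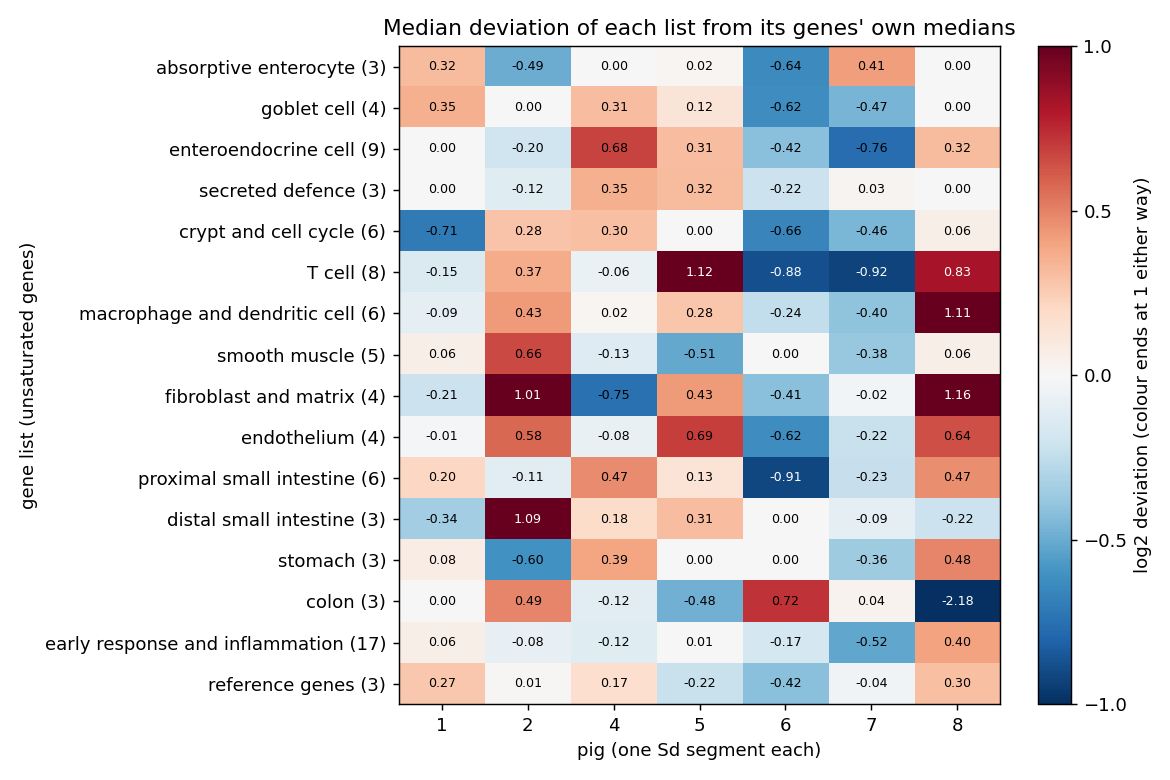
Median deviation of the genes of each list from their own medians over the 7 Sd segments, in log2 units, with pigs as columns. Only lists with at least 3 genes that were well above background on all arrays and saturated on none are drawn, with the number of such genes in parentheses, and colours end at 1 in either direction. Some genes belong to several lists. T cell genes are highest in pig 5 (1.12) and pig 8 (0.83), and fibroblast genes in pig 8 (1.16) and pig 2 (1.01).

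Fibroblast genes of the lamina propria were high in pigs 2, 5 and 8, where most T cell genes were high too. Of the 8 unsaturated T cell genes, 7, 7 and 8 lay above their medians in these pigs. The 4 fibroblast and matrix genes lay above their medians together in pigs 2, 5 and 8 and below or at them in the other 4. DCN, the collagen-binding proteoglycan decorin, was at 2.22, 3.66, 1.86, 2.96, 2.30, 2.47 and 3.87, and the collagen chain COL1A2 ranged from -0.19 in pig 6 to 1.74 in pig 2. VWF, made by endothelial cells, was at 1.51, 1.55 and 1.40 in pigs 2, 5 and 8 and at -0.96 in pig 6. All 6 macrophage and dendritic cell genes were above their medians in pig 8, with a median deviation of 1.11. In pig 5 they were mixed, with CD86 lowest of the 7 (1.80) and AIF1 (4.42) above its median. Smooth muscle genes, which a scraping that reaches below the mucosa would carry, lay above their medians in pig 2 (5 of 5), but in 2 and 3 of 5 genes in pigs 5 and 8: desmin (DES) ran from 2.89 in pig 5 to 4.49 in pig 1, and CNN1 from 0.72 in pig 5 to 2.72 in pig 1. ACTA2 of the same list went the other way, from 3.105 in pig 1 to 4.117 in pig 5. Of 2 named mast cell genes, KIT ranged from 0.10 in pig 6 to 2.13 in pig 2 and MS4A2 was above background on 4 arrays. The glial gene GFAP was above background on 1 array, and no gene of the tuft cell and red blood cell lists was among those named.

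Genes of other organs were mostly dim or not above background. The stomach genes GKN1 and GKN2 and the pancreatic hormone gene INS were well above background on 0 of 7 arrays. Of the liver genes, ALB was on 3, and CYP7A1 and TTR were on 1 each, while SERPINA1, which enterocytes also make, was on 7. Among pancreatic enzymes CPA1 (-4.24 to -2.33) and CELA1 (-4.43 to -3.01) were dim on all 7, whereas the elastase CELA2A, outside that list, reached 1.10 in pig 4. PNLIP was at -1.12 in pig 5 and between -4.43 and -4.39 in the others. The stomach proton pump chains ATP4A (-3.57 to -1.97) and ATP4B (-2.86 to -1.16) and gastrin (GAST, -1.57 to -0.72) were above background throughout.

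Immediate early and inflammatory genes were measurable in most segments. Of 22 such genes, 18 were well above background on all 7 arrays, and IL6, IL1A, SOCS3 and PTGS2 were not. JUN was at 6.12 to 7.08 and saturated on 1 array. FOS, its partner in the AP-1 transcription factor, was at 2.16, -0.63, 0.68, 0.74, -0.11, -0.68 and 0.31, with pig 1 highest. The haem oxygenase HMOX1 ranged from 3.09 to 4.29, the neutrophil attractant CXCL8 from 0.46 to 1.68, TNF from -0.68 to 0.77 and the matrix metalloproteinase MMP1 from 3.59 to 5.46. IL6 was above background on 4 arrays, never above -2.99. The heat shock gene HSPA6 ranged from 0.19 in pig 2 to 2.88 in pig 1. Over the 17 unsaturated genes the median deviation lay between -0.52 (pig 7) and 0.40 (pig 8). What share of these levels came from surgery and perfusion was not tested, as no unperfused mucosa was measured.

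Over 1970 genes that were well above background on all 7 arrays and saturated on none, the SD between pigs had a median of 0.398, with 5th and 95th percentiles of 0.177 and 1.00. An SD above 1 was found in 101 genes (5.13%) and one under 0.2 in 158 (8.02%). The median SD was 0.475 in the lowest, 0.401 in the middle and 0.328 in the highest class of signal. By comparison, spots of one probe on the same array had a median SD of 0.106 (36 probes), which leaves out labelling and hybridisation. Pig and array cannot be told apart, since each pig gave 1 Sd array. Over the same genes pig 6 stood farthest from the rest: its mean correlation with the other arrays was 0.949 against 0.958 to 0.966, 219 genes were more than 2-fold from their median against 78 to 157, and it held the lowest value of 670 genes.

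**Figure D3:**
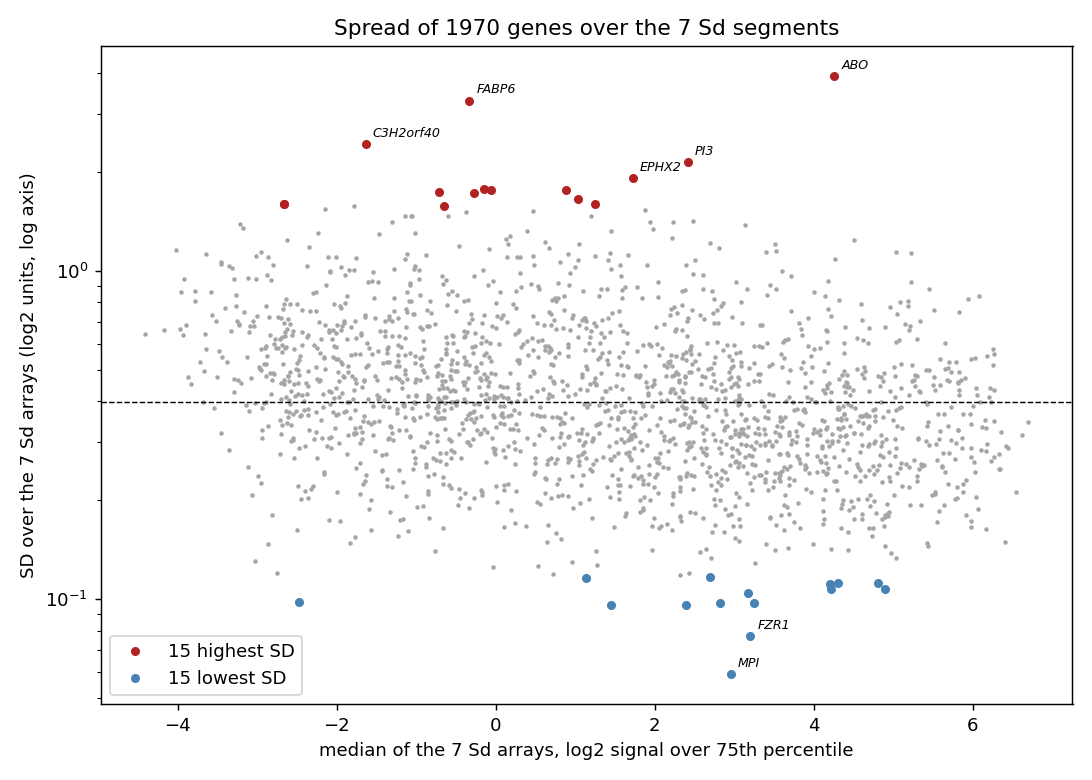
SD over the 7 Sd segments (y axis, log2 units on a log axis) against median level (x axis, log2 signal over the 75th percentile) of 1970 genes, with the 15 genes of highest SD in red, those of lowest SD in blue and the median SD of 0.398 as a dashed line. ABO (3.92) and FABP6 (3.29) lie above all other genes, and MPI (0.059) lies below.

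ABO, the glycosyltransferase of the blood group antigens, varied most. It was at 5.12, -2.40, 4.26, 4.52, 5.19, -2.15 and -3.01, so that pigs 1, 4, 5 and 6 lay between 4.26 and 5.19 and pigs 2, 7 and 8 between -3.01 and -2.15, with no value in the gap. FABP6 came next, followed by C3H2orf40 at -1.63, 1.10, -2.72, -1.92, 4.20, -2.11 and -0.42, in which pig 6 stood alone. EPHX2, a soluble epoxide hydrolase, was at 2.46, -2.60, -1.20, 1.81, 0.01, 1.73 and 1.99, low in pigs 2 and 4. CD5L, a protein secreted by macrophages, was at 2.64 and 3.05 in pigs 2 and 8 and between -1.27 and -0.05 in the other 5.

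The other 9 genes of highest SD, beside PI3, came from several classes. KMO, a hydroxylase of tryptophan breakdown, was at 1.68, 1.16, 1.16, -2.62, -1.67, 0.89 and -1.66. The aldo-keto reductase AKR1C1 (-3.57 to 1.15) and LOC733635 (-3.92 to 0.62) both had pig 7 highest and pig 6 lowest. CELA2A, an elastase of the pancreas, was low in pigs 1, 5 and 6 (-3.41 to -1.89) against -0.27 to 1.10 in the rest. ACAD8, of valine breakdown, and MRPL16, of the mitochondrial ribosome, were lowest in pig 5 (-2.48 and -1.95). ACKR1, a chemokine receptor of venules, and CLDN5, a tight junction protein of endothelium, were at -0.82, -0.64 and -0.03 and at -1.15, -0.56 and 0.25 in pigs 2, 5 and 8, and between -4.12 and -2.66 in the other 4. CD8A completed the 15. Of these 15 genes, FABP6, EPHX2, CD5L, AKR1C1 and CELA2A had other probes above background, which gave r of 0.98 to 0.999 with the one used, and the other probe of CD8A did not.

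The second segment of each pig was used to see which of these differences were found again in the same animal. That segment had received YOd or WOd, and no treatment comparison was made. Segments were prepared in adjacent pairs within a pig, and both arrays of pigs 1, 4, 5, 6 and 8 were on the same slide, so pig, place along the intestine and slide cannot be told apart in a value that both segments share. Over 1898 genes measurable on all 14 arrays, the correlation between both segments over the 7 pigs had a median of 0.658. It had r above 0 and an exact permutation p under 0.05 in 34.1% of genes and an adjusted p under 0.05 in 2.95%. The median r was 0.826 in the tenth of genes with the largest SD and 0.440 in the tenth with the smallest. Of the 15 most variable genes, 10 had an exact permutation p under 0.05. Of the 13 that entered the test of all genes, EPHX2 (r = 0.925, rho = 0.964, adjusted exact permutation p = 0.0396) and CD5L (r = 0.992, rho = 0.964, adjusted exact permutation p = 0.0418) passed after adjustment. With any 1 pig left out, 0 of all genes passed, so neither EPHX2 nor CD5L kept an adjusted p under 0.05. Fewer orders can then be permuted, and the part of this in the loss was not tested. The r then stayed at 0.908 to 0.978 for EPHX2 and 0.990 to 0.996 for CD5L. Without the 2 farthest pigs, r was 0.906 for EPHX2 and 0.997 for CD5L.

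ABO was at 5.32, -2.21, 4.83, 4.84, 5.23, -4.16 and -2.95 in the second segments, so each pig kept its side of the gap (r = 0.985, exact permutation p = 0.0141). One of the 14 ABO values was not well above background, which kept the gene out of the test of all genes. KMO (r = 0.976), PI3 (0.968), ACAD8 (0.962), CELA2A (0.946) and MRPL16 (0.885) also kept much of their order of pigs, though not their levels: PI3 was at -1.58 and -4.22 in the segments of pig 1, and MRPL16 at 0.49 and -1.65 in those of pig 7. FABP6 was at -0.87, 3.78, -2.23, 1.20, 0.43, 2.55 and -2.44. Its r was 0.623 (exact permutation p = 0.140, rho = 0.679), and pig 6, highest of the Sd segments at 6.47, was at 0.43 in its second segment. Without pig 6 the r of FABP6 was 0.935, and without 1 of the other pigs it was 0.53 to 0.66. C3H2orf40 behaved likewise, with 4.20 and -3.35 in pig 6, and its r was -0.128 with pig 6 and 0.754 without it (exact permutation p = 0.0944). AKR1C1 (r = 0.324) and LOC733635 (0.268) were the others with low values. Without pig 7 their r was 0.735 and 0.718 (exact permutation p = 0.100 and 0.114), and without 1 of the other pigs it was 0.19 to 0.37 and 0.10 to 0.31. Without both pigs of the later session it was 0.924 and 0.934 (exact permutation p = 0.025 for each). Pigs 6 and 7 were singled out after their values were seen, so the higher r without them tests nothing. The paper reports AKR1C1 as raised by both onion digests, a call made over groups of pigs. In pig 7, AKR1C1 was lower in the second segment (-1.17) than in the Sd segment (1.15). In pig 2 it was at -1.85 in the Sd segment and -1.67 in the second. In each of the other pigs it was higher in the second segment. The part of the digest in the r of AKR1C1 was not tested. For the regional markers, SCT gave r = 0.782 (adjusted exact permutation p = 0.124) and SLC10A2 r = 0.805 (exact permutation p = 0.021), falling to 0.386 without the 2 farthest pigs.

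**Figure D4:**
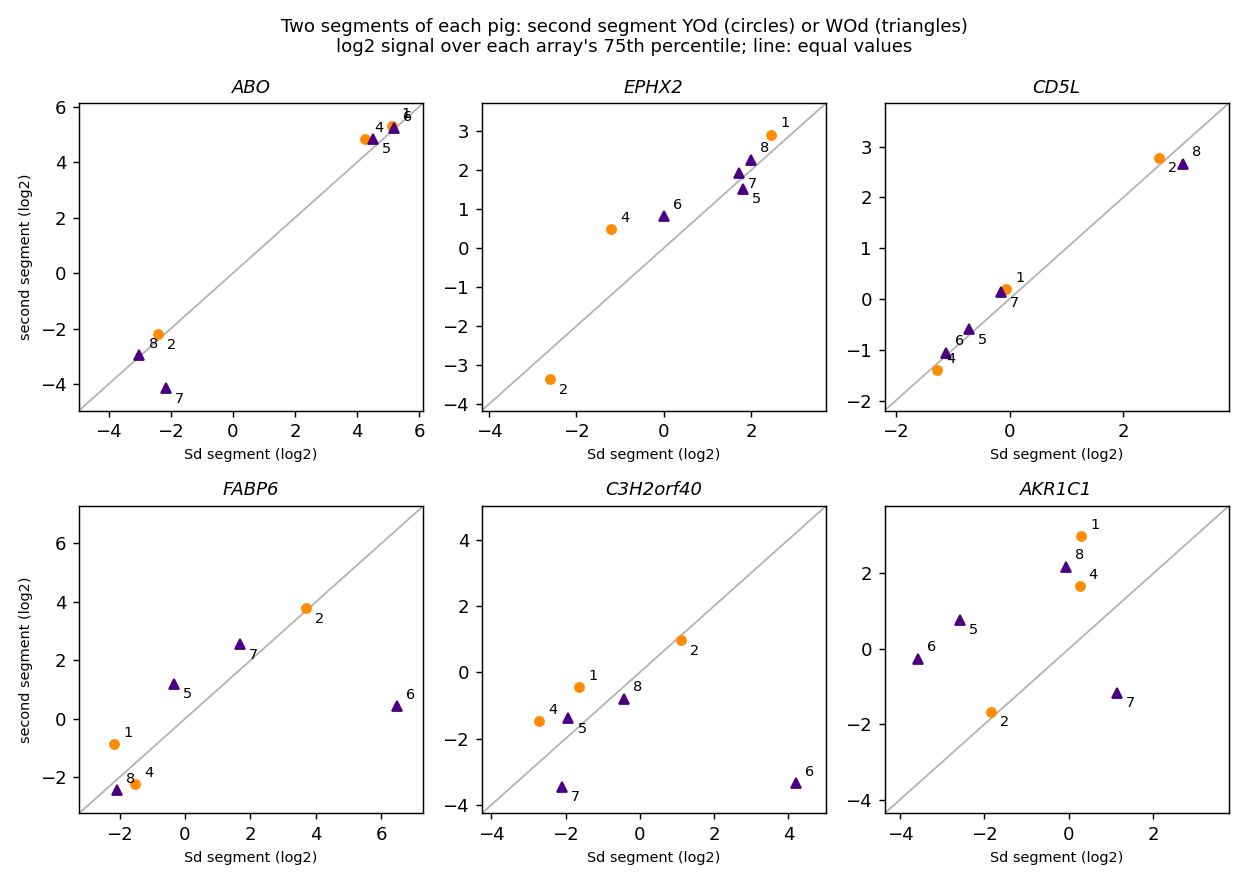
Level in the Sd segment (x axis) and in the second segment (y axis) of each pig, numbered, for 6 of the most variable genes, as log2 signal over the 75th percentile. Circles are pigs whose second segment received YOd, triangles those with WOd, and the line marks equal values. ABO, EPHX2 and CD5L have r of 0.985, 0.925 and 0.992, with single pigs off the line (pig 7 for ABO, pig 4 for EPHX2), whereas pig 6 lies far below it for FABP6 and C3H2orf40.

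Lowest in SD was MPI, mannose phosphate isomerase, which was at 3.01, 2.91, 2.98, 2.89, 2.90, 2.96 and 3.05 (SD 0.059), a range of 1.12-fold. The cell cycle adaptor FZR1 (SD 0.077), the kinase TYK2 (0.096), MAPKAPK3 (0.096), LOC100156657 (0.097) and the deacetylase SIRT6 (0.097) followed. The others were LOC100154946, PRKAB1, a subunit of the AMP-activated kinase, LAMTOR2 and SCARB2 of the lysosome, the GTPase CDC42, the splicing factor SF3B1, the proteasome subunit PSMA4, FRA10AC1 and LPIN2, none with an SD over 0.117. These SDs are near the 0.106 found between spots of one probe, and only 5 of the 15 were again among the lowest under quantile normalization. Genes in common use as references were not among them: of 10 named, 7 were saturated on 2 or more arrays, including GAPDH, B2M and RPLP0 on all 7. HPRT1 (SD 0.287) and PGK1 (SD 0.419) were saturated on none.

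In 55 genes 1 pig lay more than 2-fold above every other pig, and in 45 genes 1 pig lay more than 2-fold below. The same pig was also the highest in the second segments in 30 of the 55, and the lowest in 37 of the 45; over all genes these shares were 42.6 and 39.8%. Pig 6 held 15 of the first kind and 22 of the second, and pig 8 held 21 and 1.

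Of the 15 high genes of pig 6, 6 were also highest in its second segment, a share near that over all genes, and of its 22 low ones 19 were lowest there too. The shares over all genes were pooled over the pigs. None was worked out for pig 6 alone, whose Sd array held the lowest value of 670 genes. The chemokine CCL20 was at 5.62 in the Sd segment of pig 6 (1.35 to 3.61 in the others) and 2.14 in its second segment. The bacterial lipoprotein receptor TLR2 was at 0.20 and -2.41, the secreted chaperone clusterin (CLU) at 0.97 and -3.48 and the lymphoid homing receptor CCR7 at -0.42 and -3.39. Genes of B cells, looked at after these values were seen, had the same course. MS4A1 was at 0.92 in that segment and at the floor of -4.43 in the second segment of pig 6, and in the Sd segments of the other pigs it was above the floor in pig 2 alone, at -3.003. CD79A was at -0.25 in that segment, at the floor in the second, and at -4.43 to -3.03 in the other Sd segments. XBP1 of the B and plasma cell list, which epithelium also uses, was at 6.43, within the range of 6.05 to 6.97. The part of these cells in the values of FABP6 and C3H2orf40 was not tested. Low in pig 6 in both segments were DIO1, a deiodinase (-1.88 and -0.23), the sorbitol dehydrogenase SORD (1.37 and 1.96), the antimicrobial peptide LEAP2 (0.93 and 1.86) and VWF (-0.96 and -0.31).

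**Figure D5:**
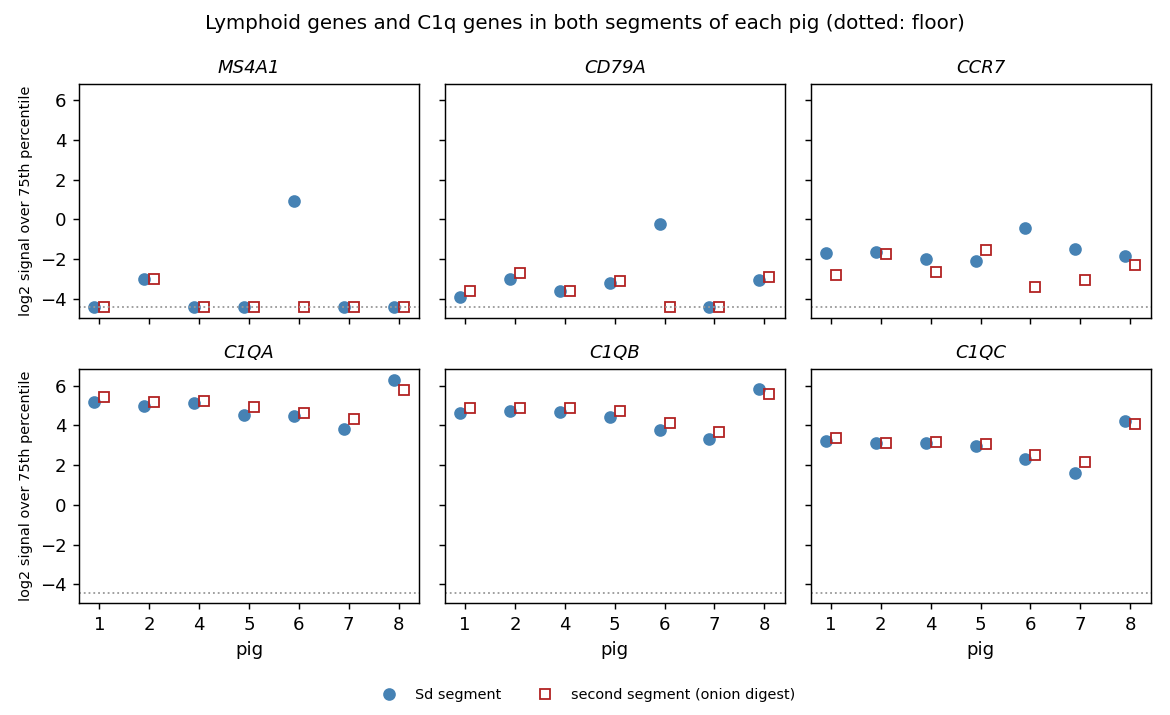
Levels of the B cell genes MS4A1 and CD79A and the homing receptor gene CCR7 (top) and of the complement genes C1QA, C1QB and C1QC (bottom) in the Sd segment (filled circles) and the second segment (open squares) of each pig, as log2 signal over the 75th percentile, with the floor at -4.43 dotted. The genes of the top row are highest in the Sd segment of pig 6 (0.92 for MS4A1), whereas the C1q genes are highest in both segments of pig 8 (6.30 and 5.78 for C1QA).

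Of the 21 genes that stood high in pig 8, 9 were C1q, class II, chemokine or TLR4 genes, grouped after their values were seen, and the others, such as CSN1S1, PLAC9, CD36 and IL15, were of various kinds. The C1q chains C1QA, C1QB and C1QC, made by macrophages, were at 6.30, 5.83 and 4.21, against highest values of 5.17, 4.72 and 3.20 in the other Sd segments. The class II gene SLA-DRB1 was at 6.50 (4.07 to 5.40 in the others). The chemokines CCL2 (2.71), CCL8 (1.57), CCL19 (3.79) and CCL21 (-0.42) and the endotoxin receptor TLR4 (-0.59) were also highest there. Of its 21 genes, 14 were highest in the second segment of pig 8 too, C1QA (5.78), CCL2 (2.45) and CCL19 (3.63) among them. The Sd array of pig 8 also had the lowest share of probes above background and the most outlier spots, 50.6% and 462, where the array of its second segment had 66.6% and 59.

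Pig 5 was lowest for the interferon-stimulated genes MX2, at 0.88 (3.34 to 4.58 in the others), and RSAD2, at 2.54 (4.33 to 6.43). Other genes of this kind differed: GBP2 was at 5.09 in pig 5, within the range of 3.48 to 6.39, and ISG15 was saturated. In its second segment MX2 was at 2.41 and RSAD2 at 3.67, where the lowest values of the other pigs were 2.45 and 3.49. The metallothionein MT1A was also lowest in pig 5 (4.13). Pig 1 stood above the others for CYP1A1, a target of the aryl hydrocarbon receptor (3.29, against -0.79 to 1.49), FOS, the heat shock gene HSP70.2 (5.90, against 3.39 to 4.63) and the growth factor HBEGF (0.13, against -2.04 to -1.12). In the second segment of pig 1, CYP1A1 was at 1.85 and HBEGF at 0.05, again highest, and FOS was at -0.59. PPARG was lowest in pig 2 in both segments (-0.18 and -0.12), and ITLN2, an intelectin, in pig 4 (-1.16 and -1.96).

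Pigs 1, 2 and 4 received YOd in their second segment and pigs 5, 6, 7 and 8 WOd, which divides the Sd segments into 2 sets of animals that had been treated alike in the Sd segment. Between the sets, 0 of 2443 genes tested with limma had an adjusted p under 0.05 (0.0%). At a raw p under 0.05 and a fold change above 1.5 there were 27 genes (1.11%), of which 17 (0.696%) were higher in the first set and 10 (0.409%) in the second, and 30 genes (1.23%) did not overlap between the sets. Both shares are below those that chance alone would give with 3 pigs against 4. The genes named next are therefore described and not called different between the sets. KMO had the lowest p of those higher in the first set (second set minus first -2.60 ± 0.70 SE, limma adjusted p = 1.00). Its 3 pigs were at 1.16 to 1.68 and the other 4 at -2.62 to 0.89. The complement gene C6 was at 4.77 to 5.37 against 4.17 to 4.40. Higher in the second set were RSPH9, of motile cilia (-2.95 to -1.17 against -4.27 to -3.06), and SLC3A1, a subunit of the cystine transporter (4.60 to 5.18 against 3.16 to 4.22). The others of lowest p were GPX2, PRNP, PTGS2, C9, RRP36 and UCP3 on the first side and CCL26, SPP1, IL18R1, GBP2, GABBR1 and ESR1 on the second. None of the 5 regional markers was among the 27. The count was 62 without pig 2, 55 without pig 8 and 42 without pig 7. On simulated arrays this test called 28% of genes changed 2-fold and 81% of those changed 4-fold. These shares belong to the simulated arrays, and how well they describe the Sd arrays was not tested. KMO, at -2.60 between the sets, did not pass after adjustment. The count of 0 genes therefore does not show that differences of 4-fold were absent.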

How the data were processed

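RNA from 7 Sd mucosal scrapings was labelled with Cy3 and hybridised to 1-colour Agilent arrays, 1 per segment. The authors deposited scanner files made with Feature Extraction 10.7.3.1 with signal intensity for each spot, and a table of log2 values that are centred near 0 for each probe; how that table was normalised is not given in the sources used here, and it served only as an alternative. Here the processed intensity (background subtracted by the software) was used. Outlier spots were left out and spots of a probe averaged. Signals were scaled to each array's 75th percentile, floored at the level below which 40% of probe values lay, as in the study's methods, and taken as log2. Probes were named through 7111 RefSeq accessions in the files, 6686 of which matched a RefSeq gene table of pig (Sscrofa11.1), giving 3020 genes; SCT was named from the study's own probe list. All other probes were left unnamed, so that gene lists are incomplete, and no probe sequence was used. For the normexp alternative (offset 50) the median signal and median background were used.

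The members and gene lists were chosen with earlier results of these data known. Genes named in the text were the 5 regional markers, the list members, the 20 highest, the 15 most and 15 least variable, and the 8 of lowest p in each direction between animal sets; others were chosen after their values were seen. Animal sets were compared with limma, for genes above the floor on at least 3 arrays, with Benjamini-Hochberg adjustment over all genes tested, and on simulated data with 200 changed genes. Correlations were tested by two-sided exact permutation of all 5040 orders of 7 pigs. For the second segments adjustment was over all genes tested and not over the variable genes alone. Python 3.11.15, pandas 2.3.3 and scipy 1.17.1 were used, and the number of arrays limits the precision. Each pig is 1 animal and gave 1 Sd array, so p-values measure the spread between pigs and arrays together. Results for a few genes are not reported here.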

Additional observations from a re-analysis of the deposited data

Results flagged for a closer look

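In 156 named genes the gap of 1 pig to the nearest other pig was set against the whole range of the 7 Sd arrays. It took up more than 0.568 of the range (the 95% limit of Dixon's test for 7 values) in 8 genes. Chance alone flags about 1 in 20 groups, and 8 of 156 is near that share. Of the 8, CCR7, HBEGF, MX2 and PPARG had been chosen after 1 pig was seen to stand apart, and ACAD8 for its large SD. The flags therefore describe these genes and test nothing. Pig 5 was low for ACAD8 (0.669 of the range) and MX2 (0.666) and high for LPIN2 (0.682), whose whole range was 1.27-fold. Pig 6 was high for CCR7 (0.644), CD79A (0.664) and VEGFA (0.57). Pig 1 was high for HBEGF (0.576), and pig 2 was low for PPARG (0.578). Of 5 measures of array quality, the number of outlier spots was set apart by pig 8 (0.759).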

How the results depend on the processing

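No paired analysis was possible because the Sd arrays of pigs 1, 2 and 4 and those of pigs 5 to 8 share no animal, so no replicate block could be fitted between the sets. The number of genes with an adjusted p under 0.05 between the sets was 1 instead of 0 with every probe tested (of 26245) and 0 to 1 when 1 pig was left out. The count at raw p and fold change (27) was 285 with every probe, 15 without the filter on dim genes, 74 without the later scan session and 23 to 62 without 1 pig. With scan session as a fixed term, chosen after seeing the data, it was 25, and with slide as a random block 34. Of the 10 marker pairs, 3 passed after adjustment; 0 did without the later session and 1 to 4 without 1 pig. For FABP6 and SLC10A2, r was 0.927 without the later session (adjusted exact permutation p = 0.0833) and 0.648 to 0.901 without 1 pig; for FABP6 and SCT it was -0.964 (adjusted exact permutation p = 0.139) and -0.974 to -0.894. For SLC10A2 and SCT it was -0.850 with normexp, which passed, and -0.925 to -0.509 without 1 pig. Of the 15 most variable genes, 2 passed between segments after adjustment, 4 with the mean of probes and 0 without the later session or without any 1 pig. Over all genes 56 passed, 16 with normexp, 99 with the mean of probes and 0 in those smaller sets, where fewer orders can be permuted. The median SD was 0.341 with normexp and 0.363 to 0.406 without 1 pig. The 15 most variable genes shared 9 with normexp, 4 with every probe and 10 to 14 without 1 pig. The 15 least variable shared 5 with quantile normalization, 9 with normexp, 5 with the mean of probes, 6 without the later session, 1 with every probe and 5 to 11 without 1 pig, so which genes vary least depends on the processing. The r of C3H2orf40 between segments turned from -0.128 to 0.754 without pig 6, and was -0.451 to 0.754 over the sets that left out 1 pig. The cause of these shifts was not tested. Saturation limits the brightest genes and background the dimmest.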
